A study of Mus musculus with 32 samples.

Results

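The 9 genes that act in the formation of meiotic crossovers, Msh4, Msh5, Hfm1, Rnf212, Ccnb1ip1, Tex11, Mlh3, Mus81 and Cntd1, were followed through the first wave of spermatogenesis. They were chosen by name and matched by symbol to GENCODE identifiers, and all 9 were among the 20368 genes of the juvenile gene table. RNA-seq had been done on germ cells isolated from the testes of single C57BL/6J males, with 3 mice at 8 days post partum (dpp) and 5 mice at each of 10, 12, 14, 16 and 18 dpp, none of them treated or mutant. A further 4 samples held spermatocytes of the pachytene and diplotene stages, enriched by sedimentation at unit gravity from adults of 9 weeks, with the cells of 6 mice pooled in each. Levels are given as TPM, a measure of each gene's share of all transcripts that is corrected for length, and differences as log2 fold changes of TPM + 1 from limma with 1 model over the 6 ages. A gene was called where the p-value, adjusted over all 20368 genes by Benjamini-Hochberg, was under 0.05. Read counts are not kept by TPM, the depth behind each value is therefore unknown, and the spread between mice was the only error available. The mice of an age are separate animals.

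Crossovers are the exchanges between homologous chromosomes that hold them together until the first meiotic division. They arise from programmed DNA breaks that are repaired with the homolog as template. In the main pathway, the ZMM proteins stabilise the joined DNA molecules. The MSH4-MSH5 dimer encircles them, the helicase HFM1 (the mouse counterpart of yeast Mer3) and TEX11 (the counterpart of Zip4) act alongside, and RNF212 and HEI10, the product of Ccnb1ip1, are RING-domain proteins that decide which sites keep these factors. In pachynema CNTD1 is needed to reduce the sites to the final number, and a nuclease that contains MLH3 then cuts the joints to give crossovers. MUS81, a nuclease that works with EME1 or EME2, makes a smaller number of crossovers outside this pathway.

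The samples were mixtures whose make-up changed with age. The summed TPM of 4 pachytene markers (Piwil1, Ccna1, Hspa2, Ybx2) lay between 59.2 and 74.3 at 8 dpp, between 1802 and 2978 at 18 dpp and between 4933 and 5160 in the adult samples. Of 4 spermatogonial markers, Zbtb16, Gfra1 and Kit were lower at 18 than at 8 dpp by their means (9.04 against 22.7 TPM for Zbtb16), whereas Dmrtb1 was higher, at 420.3 against 54.9 TPM. Markers of Sertoli cells (6 genes) were not absent from the isolated germ cells, with medians of their summed TPM of 1644 at 8 dpp, 593.55 at 18 dpp and 48.8 in adult samples. The ranges over the juvenile mice were 165.6 to 465.2 for 5 Leydig markers and 515.6 to 1856 for 4 peritubular markers, against 205.8 to 269.3 and 5.33 to 10.3 in the adult samples. The 5 spermatid markers summed to at most 6.19 TPM in the juvenile mice, with Prm1, Prm2 and Tnp2 at 0 in every mouse of 10 and 12 dpp, and to between 854 and 1156 TPM in the adult samples. In such bulk samples fewer cells of a type and less RNA per cell cannot be told apart. By the library names, indices recur between the early (8 to 12 dpp) and late (14 to 18 dpp) ages but not within either set, so the libraries were not all in 1 pool, and in comparisons of an early with a late age a difference of pool and one of age cannot be told apart.

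Tex11 is X-linked and the other members are autosomal. On GRCm38, GENCODE places Msh4 (ENSMUSG00000005493) at chr3:153857149-153906138, Msh5 (ENSMUSG00000007035) at chr17:35028605-35046745, Hfm1 (ENSMUSG00000043410) at chr5:106840192-106926321, Rnf212 (ENSMUSG00000055385) at chr5:108729290-108774982, Ccnb1ip1 (ENSMUSG00000071470) at chr14:50789248-50807732, Tex11 (ENSMUSG00000009670) at chrX:100838648-101059667, Mlh3 (ENSMUSG00000021245) at chr12:85234520-85270599 and Mus81 (ENSMUSG00000024906) at chr19:5482345-5488402, all on the minus strand, and Cntd1 (ENSMUSG00000078653) at chr11:101279012-101296317 on the plus strand. Annotated genes overlap several of them. Mus81 overlaps the opposite-strand gene Efemp2, whose mean level was 47.5 TPM at 8 dpp, 36.9 at 18 dpp and 2.01 in adult cells. Cntd1 overlaps Coa3 (26.1 TPM at 8 dpp, 37.6 at 18 dpp) and Becn1 (142 and 157 TPM), both on the opposite strand. Whether strand was used in the counting is not given in the sources used here, so shared reads in these overlaps cannot be told apart.

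The promoter sequences of the genes were searched for 7 short motifs of germ-cell and general transcription factors. RefSeq start sites on GRCm38.p6 gave the 250 bases before the start for 8 of the 9 genes. The core of the NRF1 motif, GCATGCG on either strand, was found before Hfm1, Rnf212 and Mlh3, 3 of 8 genes, and in 3.01% of all 32817 windows of this length. These 3 windows are shown because their genes had unlike courses with age. Capitals mark letters matched by GCATGCG, by CNCCTCAG (the STRA8-MEIOSIN motif), by GGGCGG (the SP/KLF box) or by GTTGCC (bound by RFX factors), all on both strands, and neighbouring matches run together. The Hfm1 window lies within the GENCODE span of the gene, since the RefSeq start is further inside it. Each window ends 1 base before the RefSeq start and is given 5′ to 3′ on the gene's strand, which is minus for all 3.
Hfm1, chr5:106925891-106926140: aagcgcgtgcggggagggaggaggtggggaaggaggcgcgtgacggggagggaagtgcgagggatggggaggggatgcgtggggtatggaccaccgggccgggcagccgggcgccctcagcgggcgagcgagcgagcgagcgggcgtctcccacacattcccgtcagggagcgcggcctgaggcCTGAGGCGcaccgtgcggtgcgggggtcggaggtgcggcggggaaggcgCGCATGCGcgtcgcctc
Rnf212, chr5:108775028-108775277: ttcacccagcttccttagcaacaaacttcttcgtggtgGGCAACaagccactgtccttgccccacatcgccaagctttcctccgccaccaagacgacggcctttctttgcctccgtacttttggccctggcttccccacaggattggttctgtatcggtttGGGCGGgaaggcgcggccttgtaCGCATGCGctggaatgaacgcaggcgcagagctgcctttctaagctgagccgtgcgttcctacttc
Mlh3, chr12:85270600-85270849: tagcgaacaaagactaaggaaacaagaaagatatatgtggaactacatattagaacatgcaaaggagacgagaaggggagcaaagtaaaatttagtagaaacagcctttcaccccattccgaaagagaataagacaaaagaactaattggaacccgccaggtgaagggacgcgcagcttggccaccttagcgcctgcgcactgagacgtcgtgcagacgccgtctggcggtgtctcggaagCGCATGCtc
The NRF1 letters lie within 66 bases of the start in each. CNCCTCAG was found in 6.41% of all windows and before Hfm1 and Msh5, and GGGCGG in 32.7% and before Cntd1, Msh5 and Rnf212. The E2F core TTCGCGC (1.28% of windows) and the E-box CACGTG (6.02%) were found before Cntd1 alone, and GTTGCC (10.4%) before Rnf212 alone among the genes with a window. The MYB core AACNG, on the other hand, was found in 74.2% of windows and before all of the 8 genes but Hfm1, and is not capitalised. As for Hfm1, the Msh4 and Ccnb1ip1 windows lie within the GENCODE spans of their genes. The same holds for all matches in the Cntd1 window and for that of CNCCTCAG in the Msh5 window. All these are matches of letters and not sites of binding.

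Of the 9 genes, 8 differed among the ages, beside 77.6% of all genes tested, and Rnf212 did not (adjusted p = 0.156, limma F test). Between 8 and 18 dpp, 7 rose (31.8% of all genes) and Tex11 fell (36.3%). The median change of the 9 genes was 1.36 on the log2 scale, beside -0.09 over all genes. The rises were largest for Cntd1 and Msh4 and smallest for Msh5 and Mus81. The median over all genes depended on the scaling and was 0.05 with median-of-ratios factors and -0.26 with quantile normalization, in place of -0.09, and the 8 calls were made in the same direction under both.

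**Figure D1:**
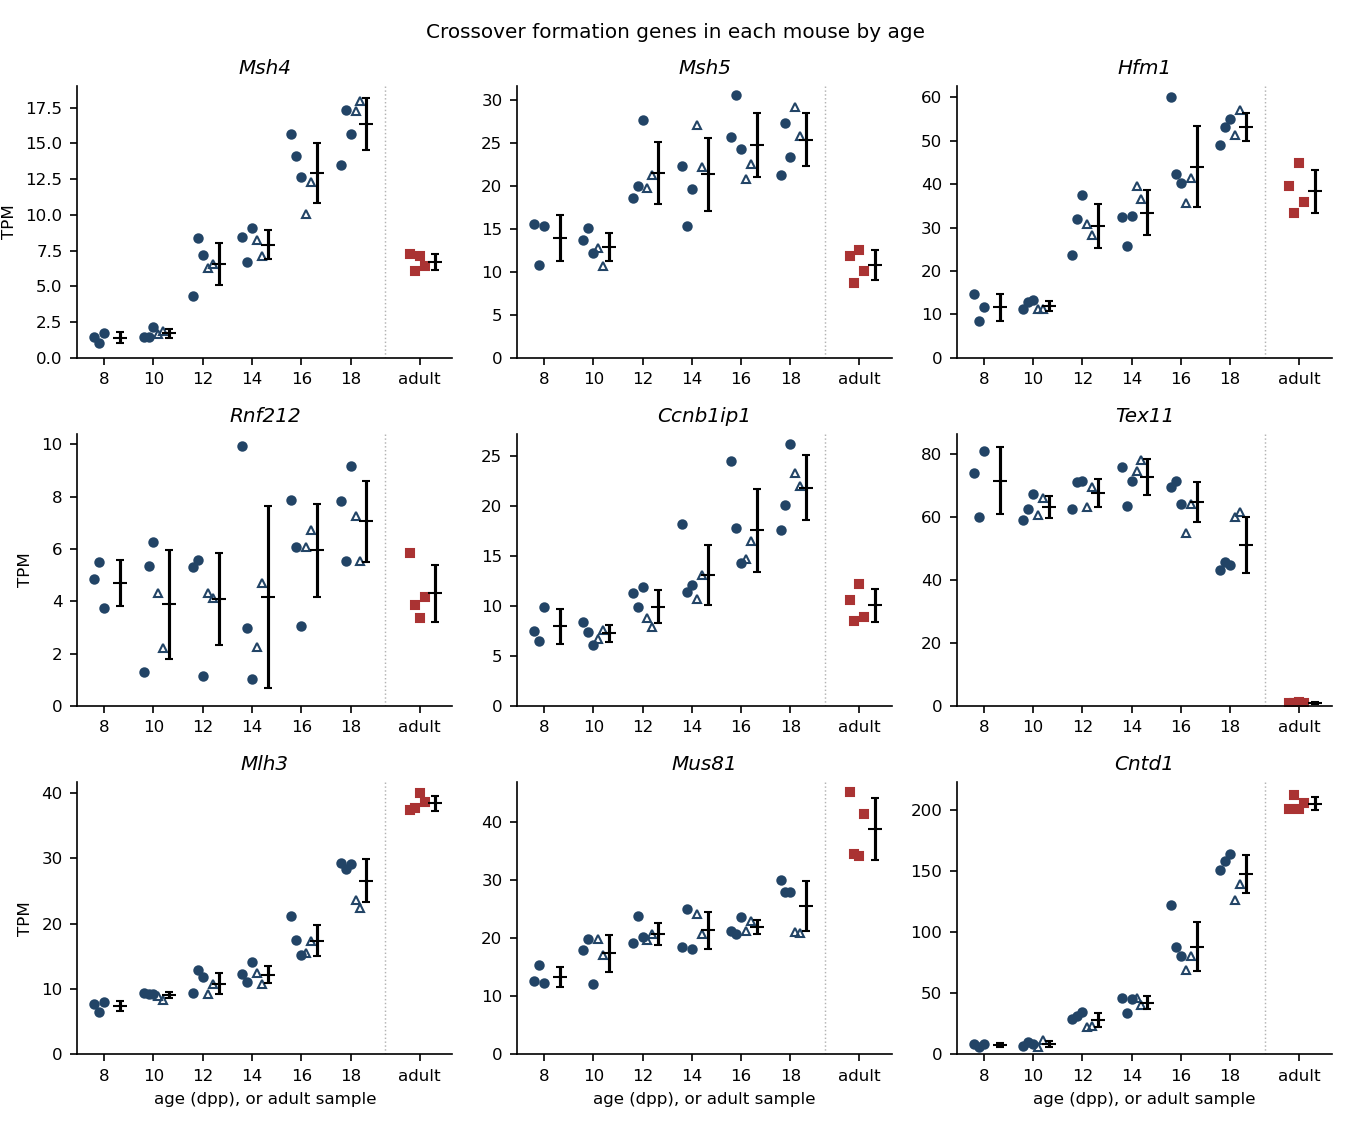
TPM of each of the 9 genes (vertical axes, from 0) by age in dpp and in adult samples (horizontal axes). Filled circles are mice 1 to 3 of an age, open triangles the later-numbered mice, red squares adult samples, and bars give the mean and SD. The mean of Cntd1 is higher at each age from 10 dpp on than at the age before, Rnf212 scatters widely from 10 to 16 dpp, and Tex11 is near 1 TPM in adult cells.

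The order of the genes by level turned over with age. At 8 dpp Tex11, at 71.5 ± 10.7 TPM (SD, n = 3), was the highest and did not overlap with the next, while Msh5, Mus81, Hfm1, Ccnb1ip1, Cntd1 and Mlh3, from 13.9 down to 7.36 TPM, each overlapped with its neighbour. Rnf212 (4.70 ± 0.89 TPM) and Msh4 (1.40 ± 0.37 TPM) came last, each below the gene before it in all mice. At 18 dpp Cntd1 was the highest, at 148 ± 15.3 TPM (n = 5), and stood apart from Hfm1 (53.15 ± 3.16 TPM) and Tex11 (51.1 ± 8.97 TPM), which overlapped. Mlh3, Mus81, Msh5, Ccnb1ip1 and Msh4 followed from 26.6 to 16.4 TPM with overlapping neighbours, and Rnf212, at 7.06 ± 1.55 TPM, was then the lowest.

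The calls were unevenly spread over the steps between neighbouring ages. Between 8 and 10 dpp no member was called by limma (2 had an unadjusted p under 0.05, Mlh3 and Mus81), beside 1.20% of all genes. Between 10 and 12 dpp Msh4, Msh5, Hfm1 and Cntd1 rose, 4 of 9 beside 12.0% of all genes, and none fell. Between 12 and 14 dpp no member was called (2 at an unadjusted p under 0.05, Ccnb1ip1 and Cntd1), at a step where only 0.172% of all genes were. Msh4, Hfm1, Mlh3 and Cntd1 rose between 14 and 16 dpp, again 4 of 9, beside 12.7% of all genes. The share of rises among all calls of this step was 53.0%. With median-of-ratios factors it was 66.3%, and 5 members were higher, beside 14.0% of all genes. Quantile normalization gave 41.6%, with 4 members higher, beside 11.8% of all genes. Between 16 and 18 dpp Mlh3 and Cntd1 rose, 2 of 9 beside 23.4% of all genes, and Tex11 fell, beside 30.6%. The last step depended most on the scaling. With median-of-ratios factors 6 members rose, beside 30.4% of all genes, and none fell, beside 17.8%. The share of rises among all calls went from 43.4% to 63.0%. Quantile normalization gave 3 higher, beside 22.2% of all genes, and 1 lower, beside 36.6%. From 12 to 18 dpp, 6 rose (28.6% of all genes) and 1 fell (39.1%). With median-of-ratios factors 8 rose and 1 fell over this span, with rises making up 55.3% in place of 42.2% of all calls, and with quantile normalization 5 rose and 1 fell (33.6%).

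**Figure D2:**
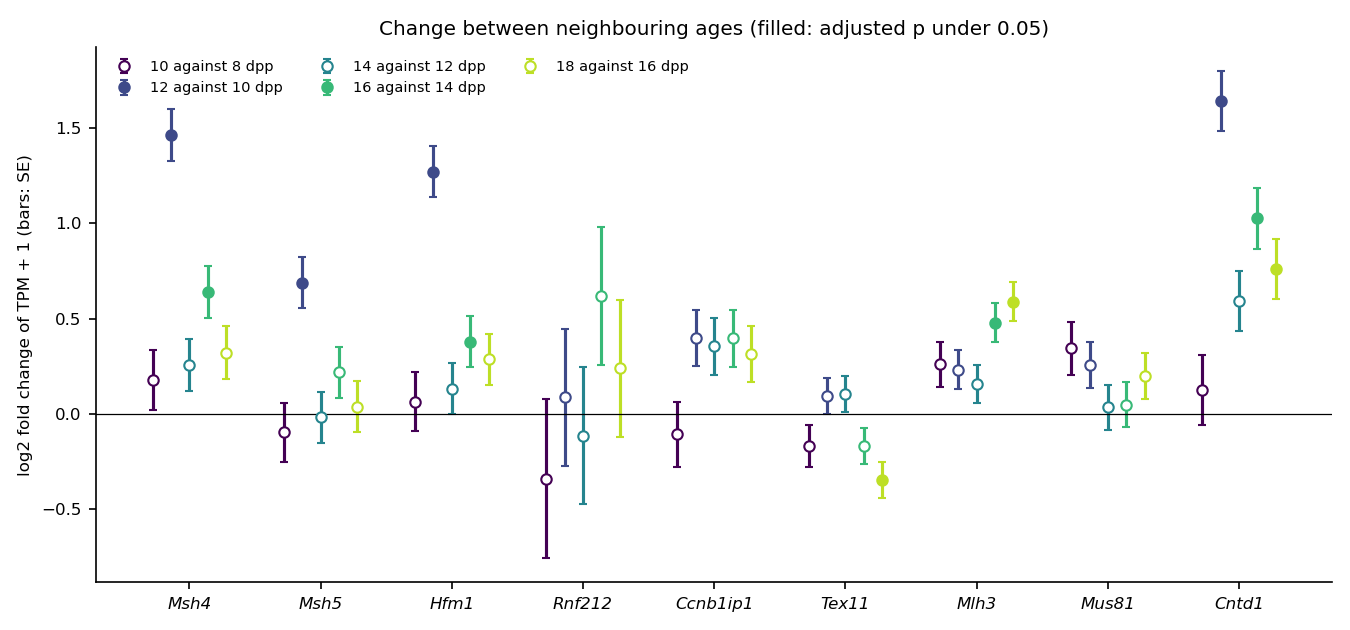
Log2 fold change of TPM + 1 (vertical axis) between neighbouring ages for each gene (horizontal axis), with bars of 1 SE and filled points where the adjusted p was under 0.05. Msh4, Msh5, Hfm1 and Cntd1 have their largest step between 10 and 12 dpp, and Mlh3 has its largest between 16 and 18 dpp.

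Msh4 and Msh5 encode the subunits of the MutS-gamma dimer, which binds recombination intermediates. Msh4 measured 1.45, 1.01 and 1.75 TPM in the mice of 8 dpp, and 1.42, 1.42, 2.18, 1.68 and 1.86 TPM at 10 dpp. At 12 dpp the values were 4.30, 8.41, 7.20, 6.30 and 6.59 TPM, and at 18 dpp 13.51, 17.35, 15.70, 17.30 and 17.97 TPM. Every mouse of 12 dpp was thus above every mouse of 10 dpp, and every mouse of 18 dpp above every mouse of 12 dpp. The change was 1.46 ± 0.14 (SE) on the log2 scale from 10 to 12 dpp (adjusted p = 1.4e-08), 0.64 ± 0.14 from 14 to 16 dpp (adjusted p = 0.00109) and 2.86 ± 0.16 from 8 to 18 dpp (adjusted p = 1.53e-14), an 11.7-fold difference in mean TPM. From 16 to 18 dpp Msh4 was 0.32 higher, with an adjusted p of 0.0501 that 12 of 42 alternatives took under the threshold. In the later-numbered mice alone the step from 14 to 16 dpp was 0.49 (adjusted p = 0.0675).

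Msh5 started higher and moved less. Its values were 15.58, 10.81 and 15.28 TPM at 8 dpp, 10.64 to 15.06 TPM at 10 dpp, and 18.52, 19.97, 27.65, 19.76 and 21.24 TPM at 12 dpp. The rise from 10 to 12 dpp was 0.69 ± 0.13 (adjusted p = 0.000427), with all mice of 12 dpp above those of 10 dpp. From then on the means lay between 21.3 and 25.3 TPM, the ranges of neighbouring ages overlapped, and the change from 12 to 18 dpp was 0.24 ± 0.13 (adjusted p = 0.119), though it was called as a rise with median-of-ratios factors. The change from 8 to 18 dpp was 0.83 ± 0.15 (adjusted p = 3.17e-05).

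Hfm1 encodes a DNA helicase of the ZMM group. The mice of 8 dpp measured 14.71, 8.44 and 11.61 TPM, those of 10 dpp 11.12 to 13.35 TPM, and those of 12 dpp 23.58, 31.87, 37.48, 30.91 and 28.32 TPM. At 18 dpp the values were 49.07, 53.25, 55.03, 51.24 and 57.16 TPM, the narrowest spread of the 9 genes at this age (5.94% of the mean). The rise from 10 to 12 dpp was 1.27 ± 0.13 (adjusted p = 1.03e-07), and that from 8 to 18 dpp 2.13 ± 0.15 (adjusted p = 2.79e-12), 4.59-fold in mean TPM. The smaller rise from 14 to 16 dpp, 0.38 ± 0.13 (adjusted p = 0.0400), rested on single mice. It was lost without mouse 1 of 16 dpp (0.26, adjusted p = 0.164) or mouse 2 of 14 dpp (0.29, adjusted p = 0.132), and also without mouse 2 or 5 of 16 dpp or mouse 1 or 3 of 14 dpp, with adjusted p between 0.0577 and 0.0682. In the later-numbered mice it was 0.02.

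Rnf212 and Ccnb1ip1 encode antagonists in crossover site selection, with RNF212 acting as a SUMO ligase that stabilises MutS-gamma and HEI10 as a ubiquitin ligase that limits RNF212. Rnf212 scattered more than any other member at 10, 12, 14 and 16 dpp: its values were 1.28, 5.34, 6.26, 4.31 and 2.20 TPM at 10 dpp and 9.93, 2.99, 1.01, 2.25 and 4.71 TPM at 14 dpp, an SD of 83.4% of the mean. At 18 dpp they were 7.82, 5.55, 9.16, 7.26 and 5.53 TPM, all above the 4.85, 5.51 and 3.75 TPM of 8 dpp. The change from 8 to 18 dpp, 0.49 ± 0.42 (adjusted p = 0.304), was nonetheless not past the threshold, and that from 12 to 18 dpp was 0.74 ± 0.36 (adjusted p = 0.0706). Of 42 alternatives, 3 took the latter past the threshold: median-of-ratios factors (0.91, adjusted p = 0.0315), a fit of the 2 ages alone (adjusted p = 0.0458) and the fit without mouse 1 of 14 dpp (adjusted p = 0.0418).

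Ccnb1ip1 rose slowly. It measured 7.48, 6.48 and 9.85 TPM at 8 dpp and 17.55, 20.12, 26.14, 23.29 and 21.92 TPM at 18 dpp, without overlap. The rise was 1.36 ± 0.17 (adjusted p = 8.15e-08), 2.75-fold in mean TPM. None of its single steps was called, although from 10 to 18 dpp each of the 4 steps was between 0.31 and 0.40 with an adjusted p of 0.0542 (10 to 12 dpp), 0.420 (12 to 14 dpp), 0.0512 (14 to 16 dpp) and 0.0758 (16 to 18 dpp). Of 42 alternatives, 10 took the first of these under the threshold, 10 the third and 3 the last.

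Cntd1, a cyclin-like gene needed for crossover maturation, had the widest span. The mice of 8 dpp measured 8.49, 5.53 and 8.52 TPM, those of 12 dpp 28.78, 31.26, 34.70, 21.92 and 22.92 TPM, and those of 16 dpp 122.46, 87.78, 80.72, 69.34 and 80.52 TPM. At 18 dpp the values were 150.86, 158.76, 164.20, 126.06 and 139.38 TPM, 19.7-fold above 8 dpp by the means. Each of 3 steps was called: 1.64 ± 0.16 from 10 to 12 dpp (adjusted p = 2.11e-08), 1.03 ± 0.16 from 14 to 16 dpp (adjusted p = 1.87e-05) and 0.76 ± 0.16 from 16 to 18 dpp (adjusted p = 0.000252), each with no overlap between the ages. The step from 12 to 14 dpp was 0.59 ± 0.16 and was not called (adjusted p = 0.121). From 8 to 18 dpp the change was 4.14 ± 0.18 (adjusted p = 2.35e-16). In the later-numbered mice alone, with 2 at an age, the 2 later steps were 0.78 and 0.82 with adjusted p of 0.0717 and 0.0838.

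Mlh3, the endonuclease subunit of MutL-gamma that resolves the joints, had its called steps late, although its mean rose at every step. Every mouse of 10 dpp (8.24 to 9.42 TPM) was above every mouse of 8 dpp, a change of 0.26 that was not called (adjusted p = 0.382, limma). Its values were 7.65, 6.52 and 7.92 TPM at 8 dpp, 9.36, 12.95, 11.83, 9.28 and 10.69 TPM at 12 dpp, and 21.14, 17.57, 15.20, 15.46 and 17.40 TPM at 16 dpp. At 18 dpp they were 29.31, 28.41, 29.10, 23.62 and 22.44 TPM, above every mouse of 16 dpp. The steps from 14 to 16 dpp (0.48 ± 0.10, adjusted p = 0.00103) and from 16 to 18 dpp (0.59 ± 0.10, adjusted p = 3.61e-05) were called, and the step from 10 to 12 dpp was not (0.23 ± 0.10, adjusted p = 0.111). From 8 to 18 dpp the change was 1.72 ± 0.12 (adjusted p = 9.36e-13). The last step was 0.47 in the later-numbered mice alone (adjusted p = 0.0705).

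Mus81, the nuclease of the alternative pathway, changed least among the genes that rose, with Msh5. It measured 12.54, 15.26 and 12.15 TPM at 8 dpp and 30, 27.90, 27.95, 20.93 and 20.91 TPM at 18 dpp, a rise of 0.88 ± 0.14 (adjusted p = 2.91e-06). No single step was called. The rise from 12 to 18 dpp was 0.28 ± 0.12 (adjusted p = 0.0397), with overlapping ranges, and it depended on single mice: without mouse 1, 3, 4 or 5 of 12 dpp, or without mouse 1, 2 or 3 of 18 dpp, the adjusted p lay between 0.0591 and 0.122. In mice 1 to 3 alone it was 0.43 (adjusted p = 0.0225) and in the later-numbered mice alone 0.05 (adjusted p = 0.718).

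Tex11, the X-linked ZMM gene, was alone in falling. Its values were 73.85, 59.92 and 80.86 TPM at 8 dpp, and from 10 to 16 dpp the means stayed between 63.1 and 72.7 TPM. At 18 dpp it measured 43.23, 45.78, 44.77, 59.99 and 61.71 TPM, with mice 1 to 3 low and mice 4 and 5 within the range of the earlier ages. The fall was 0.35 ± 0.10 from 16 to 18 dpp (adjusted p = 0.00337; log2 fold change -0.35) and 0.48 ± 0.11 from 8 to 18 dpp (adjusted p = 0.000351; log2 fold change -0.48). Over the 652 X-linked genes tested, 61.2% fell from 16 to 18 dpp with a median of -0.40, and 62.3% from 8 to 18 dpp with a median of -0.56. The quartiles of these genes were -0.52 and -0.25 in the first comparison and -0.90 and -0.14 in the second. Tex11 lay between them in both. With median-of-ratios factors the last step was -0.18 (adjusted p = 0.0675).

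Mice 1 to 3 and mice 4 and 5 stood apart at 18 dpp. Their pachytene marker sums were 2978, 2822 and 2917 TPM against 1975 and 1802 TPM, and their Sertoli marker sums 588, 575 and 593.55 TPM against 779 and 761 TPM. Among the members, Tex11 was lower and Mlh3, Mus81 and Cntd1 were higher in mice 1 to 3, without overlap. The difference between the sets at 18 dpp, less its mean over 10 to 16 dpp, was tested across all genes with limma after these values had been seen. It passed for 2 of 9 members, beside 27.2% of all genes: Tex11 was 0.47 ± 0.10 higher in the later-numbered mice (adjusted p = 0.00224) and Mus81 was lower (-0.50 ± 0.18, adjusted p = 0.0440). For Mlh3 it was -0.20 ± 0.15 (adjusted p = 0.350) and for Cntd1 -0.07 ± 0.23 (adjusted p = 0.863). Accordingly the fall of Tex11 from 16 to 18 dpp was -0.60 in mice 1 to 3 alone (adjusted p = 7.58e-05) and 0.04 in the later-numbered mice alone (adjusted p = 0.828). The part of the markers in these differences was not tested.

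The adult cells were quantified in a separate table, so their levels are set beside those of 18 dpp without a test. Mlh3 (37.4 to 40.0 TPM), Mus81 (34.0 to 45.1 TPM) and Cntd1 (201 to 213 TPM) were above every mouse of 18 dpp, 3 of 9 members beside 26.1% of the 15855 genes whose mean reached 3 TPM at 18 dpp. Msh4, Msh5, Hfm1, Ccnb1ip1 and Tex11 were below every such mouse, 5 of 9 beside 56.8%, and Rnf212 overlapped. The adult to 18 dpp ratio of mean TPM was 1.45 for Mlh3, 1.52 for Mus81 and 1.39 for Cntd1, against 0.41 for Msh4, 0.42 for Msh5, 0.46 for Ccnb1ip1 and 0.72 for Hfm1. Over the 15855 genes its median was 0.589, between Ccnb1ip1 and Hfm1.

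Tex11 measured 0.95, 0.88, 1.37 and 0.75 TPM in the 4 adult samples, 0.0193 of its mean at 18 dpp. Of 548 X-linked genes, 95.6% were below every 18 dpp mouse, with a median ratio of 0.0620, so that Tex11 lay lower than the median X-linked gene here. Its adult level was the lowest of the 9 genes, below Rnf212 (4.30 ± 1.07 TPM, n = 4), whereas at 8 dpp it had been the highest. Hfm1 (38.4 ± 4.99 TPM), Mlh3 (38.45 ± 1.17 TPM) and Mus81 (38.7 ± 5.38 TPM) could not be ordered in adult cells, and Msh5 (10.8 ± 1.70 TPM) and Ccnb1ip1 (10.0 ± 1.67 TPM) overlapped.

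**Figure D3:**
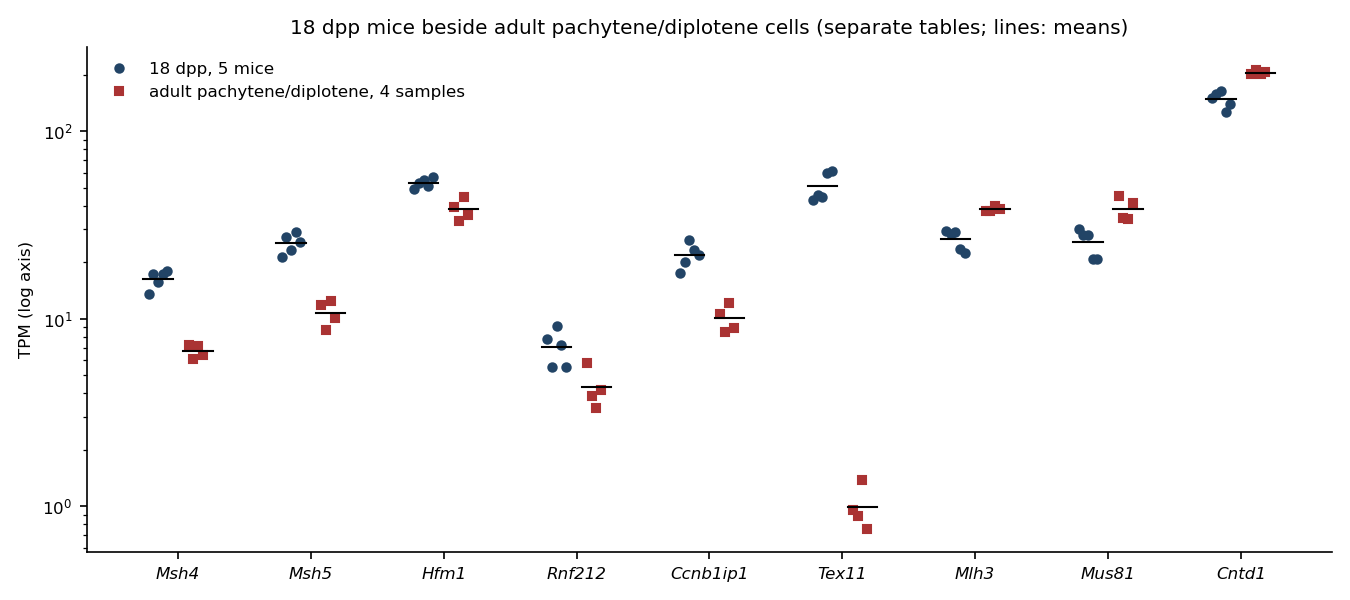
TPM on a log axis (vertical) for each gene (horizontal axis) in the 5 mice of 18 dpp (blue circles) and the 4 adult samples (red squares), with lines at the means. Mlh3, Mus81 and Cntd1 are higher in all adult samples, Rnf212 overlaps, and Tex11 lies at 0.75 to 1.37 TPM in adult cells.

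Msh4 and Msh5, whose proteins work as a pair, did not keep a constant ratio of RNA levels. The log2 ratio of TPM + 1 of each gene to a partner was compared between 18 dpp and 8 or 12 dpp with two-sided exact permutation tests, chosen after the levels had been seen. Of 8 such tests, over which the p-values were adjusted by Benjamini-Hochberg, 6 are given here. The smallest p is 0.0179 against 8 dpp and 0.00794 against 12 dpp. The ratio of Msh4 to Msh5 climbed from -2.63 ± 0.11 (SD, n = 3) at 8 dpp through -1.58 ± 0.29 at 12 dpp to -0.60 ± 0.08 at 18 dpp (n = 5), and all mice of 18 dpp were above the earlier ones (exact permutation p at its smallest, adjusted p = 0.0357 and 0.0317). Adjusted over the 6 tests given, the values were 0.0536 and 0.0476 (exact permutation test), so the first does not hold with that adjustment. With 1 mouse left out, which leaves fewer arrangements, the comparison against 8 dpp had an adjusted p (over 8 tests) of 0.0457 without mouse 1 of 18 dpp and from 0.0571 to 0.0952 without any other mouse (exact permutation test). In adult cells the Msh4 to Msh5 ratio was -0.60 ± 0.11 (n = 4), although both genes were lower there. Msh5 RNA was thus in excess of Msh4 RNA in every group, and the gap narrowed with age. Msh4 was low at 8 dpp (mean 1.40 TPM), so the added 1 TPM makes the gap at that age smaller. The change of the ratio from 8 to 18 dpp was 2.03, and from 1.96 to 2.60 in 10 alternatives.

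The ratio of Mus81 to Eme1 had means of 0.62 at 8 dpp, 1.08 at 12 dpp and 0.89 at 18 dpp, and its differences of 0.27 from 8 to 18 dpp (adjusted p = 0.357) and -0.19 from 12 to 18 dpp (adjusted p = 0.390, exact permutation test) did not pass the threshold. Its level in adult cells was 2.49 ± 0.14. Rnf212 against Ccnb1ip1 differed by -0.87 from 8 to 18 dpp, not past the threshold (adjusted p = 0.0571) and by -0.32 from 12 dpp (adjusted p = 0.452, exact permutation test). Single mice decided both: without mouse 1 of 18 dpp the first was -0.98 (adjusted p = 0.0457), and without mouse 3 of 12 dpp the second was -0.67 (adjusted p = 0.0286, exact permutation test). The ratios do not depend on any scaling of a whole sample beyond the constant of 1 TPM.

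**Figure D4:**
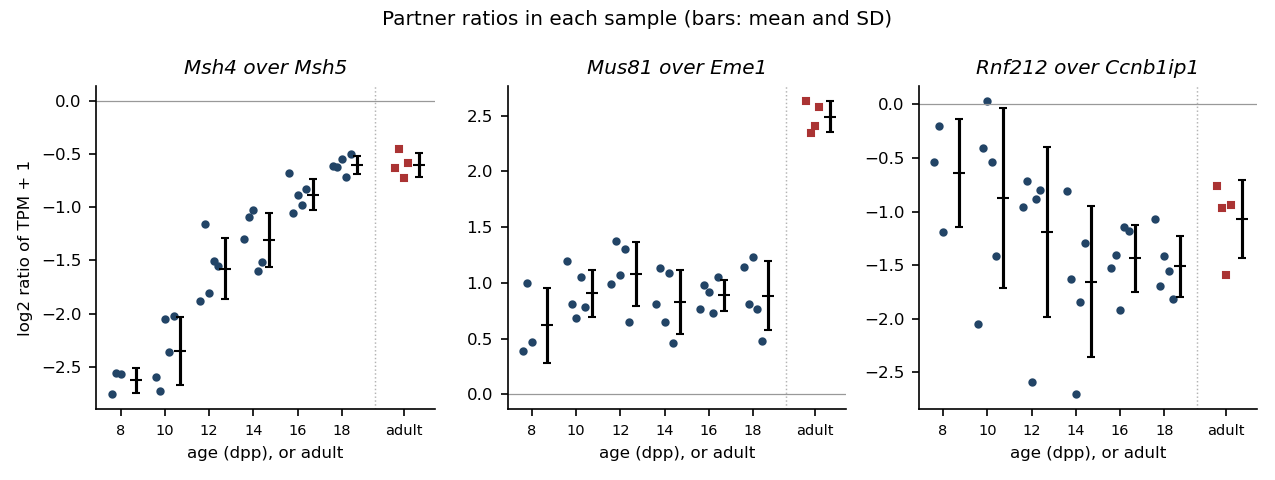
Log2 ratio of TPM + 1 (vertical axes) for 3 pairs of genes by age in dpp and in adult samples (horizontal axes). Blue circles are mice, red squares adult samples, and bars the mean and SD. Msh4 over Msh5 is higher in all mice of 18 dpp than of 8 or 12 dpp, and the other 2 pairs overlap.

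Both partners of Mus81 rose, Eme1 by 0.61 (8.33 to 13.3 TPM) and Eme2 by 0.95 (10.6 to 21.6 TPM), which set them near the 0.88 of Mus81.

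Other recombination genes were counted by the step in which their products act, beside 31.8% of all genes that rose and 36.3% that fell. Of 5 genes listed as other ZMM and designation genes, 4 rose from 8 to 18 dpp. Prr19, the partner of CNTD1, rose by 1.76 (18.8 to 67.5 TPM, and 143 TPM in adult cells). Tex12, at 0.93, was counted in this list, although its product belongs to the synaptonemal complex. Exo1 was not called (0.04). Of 11 genes of joint resolution and dissolution, 5 rose and none fell, the largest being Slx4, a nuclease scaffold, at 2.57 (18.2 to 122 TPM) and Rmi1 at 1.08. With median-of-ratios factors 8 of these rose, and with quantile normalization 4 rose and 2 fell. Of 13 genes of break formation and strand exchange, 7 rose, led by Spo11, which makes the breaks (3.21), and Meiob (2.83), and Rec114 fell (-0.69), with 8 and 1 or 6 and 3 under the other scalings. Of 10 synaptonemal complex and axis genes, 8 rose, led by Hormad1 (2.32) and Syce1 (2.27), and Rec8 fell (-0.36), though not with median-of-ratios factors. The list medians were 0.45, 0.21, 0.36 and 1.55 in this order, beside -0.09 over all genes.

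At the step from 10 to 12 dpp, at which 4 of the 9 members rose, 9 of the 10 synaptonemal complex and axis genes and 8 of the 13 break and strand exchange genes rose as well, beside 12.0% of all genes. Of the resolution and dissolution genes 1 of 11 rose (Recql5, 0.52). Of the genes listed as other ZMM and designation genes 2 of 5 rose, with Tex12 among them (0.61). None of the genes in these lists fell at this step.

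**Figure D5:**
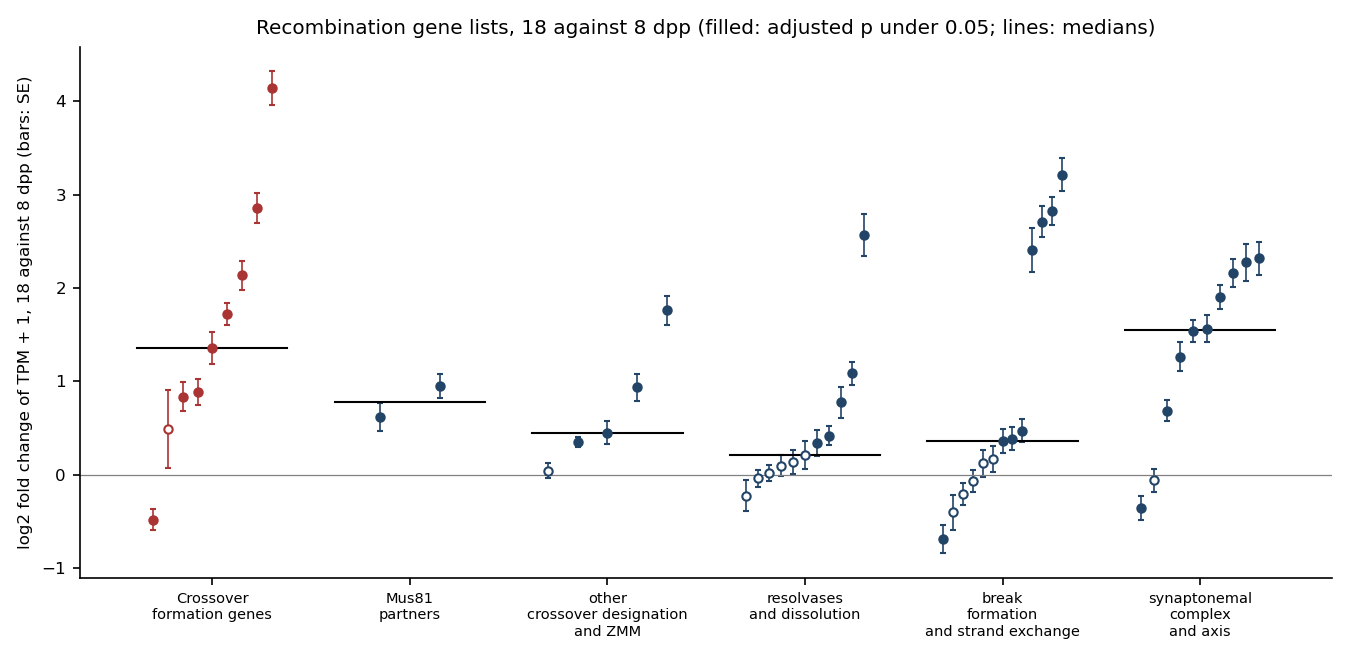
Log2 fold change of TPM + 1 from 8 to 18 dpp (vertical axis) for each gene of the 9 members (red) and of 5 other lists (blue, horizontal axis), with bars of 1 SE, filled points where the adjusted p was under 0.05 and lines at the medians. Cntd1 (4.14) lies above every other gene shown.

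Genes with the most similar course were sought by the smallest root mean square difference of mean-centred log2(TPM + 1) over the 28 mice, among 14887 Ensembl genes. Hfm1 was nearest to Sycp3, the lateral element gene (0.14, where the spread of Hfm1 itself was 0.82), and to Tex101 (0.16), a germ-cell surface gene. Msh4 was nearest to Hormad1 (0.23, against 1.06) and Gm49340 (0.25). Mlh3 followed Icmt (0.11, against 0.57) and Arhgap19 (0.12), Ccnb1ip1 followed Tbc1d31 (0.18, against 0.57) and Stk31 (0.19), and Cntd1 followed 4930524B15Rik (0.24, against 1.52) and Mlc1 (0.25). Tex11 was nearest to Nrbp1 (0.0987, against 0.22) and to Taf7l (0.0993), another X-linked germ-cell gene. For Msh5 (Asf1b, 0.15, against 0.41; CN725425, 0.15) and Mus81 (Pomgnt1 and Tmem115, both 0.17, against 0.31) the difference was a larger share of the member's own spread than for Hfm1, as it was for Tex11, and for Rnf212 it was the largest in size (Zfp286, 0.48, against 0.64; C920006O11Rik, 0.49). Among the members, Ccnb1ip1 and Mlh3 were the closest pair (0.26), followed by Msh4 and Hfm1 (0.30).

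No change of transcript usage was called in the members that could be tested. Each transcript's share of its gene's TPM in the 10 mice of 16 and 18 dpp was compared with that in the 8 mice of 8 and 10 dpp by limma, calling changes of at least 20 points with an adjusted p under 0.05. Hfm1, Msh5, Mus81 and Tex11 had 2 or more transcripts to test, 15 in all, and none was called, beside 2.38% of 26341 transcripts. Msh4, Ccnb1ip1, Mlh3 and Cntd1, which also rose, had none to test, nor had Rnf212. The SE was 9.64 points for Hfm1 ENSMUST00000112690 and 14.1 points for Tex11 ENSMUST00000113718, so a change of 20 points in these could hardly have been called. At an unadjusted p under 0.05 there was 1, Msh5 ENSMUST00000174556, at 14.9% of its gene early and 11.4% late (-3.38 ± 1.38 points, adjusted p = 0.104).

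The shares varied widely between mice. The main Hfm1 transcript, ENSMUST00000112690, held 83.7% early and 74.1% late (-9.34 ± 9.64 points), but between 24.3% and 89.0% in the mice of 12 dpp, where ENSMUST00000117588 ran from 0% to 56.7%. The main Tex11 transcripts, ENSMUST00000113718 (53.7% early, 55.4% late) and ENSMUST00000009814 (45.2% and 42.3%), traded shares, the first from 17.1% to 99.1% at 12 dpp. Msh5 ENSMUST00000097338 held 44.8% and 46.1%, and Mus81 ENSMUST00000124334 82.1% and 78.5%. The third Hfm1 transcript, ENSMUST00000148686 (6.01% and 8.05%), and Msh5 ENSMUST00000007250 (16.6% and 23.2%) changed by less than 10 points.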

How the data were processed

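Poly-A RNA of single juvenile mice and of pooled adult cells had been sequenced from paired ends. The authors aligned the reads with Bowtie 1.0.0 to mouse transcripts (Ensembl, NONCODE and piRNA precursors, GRCm38) and estimated TPM with RSEM 1.2.8. The deposited juvenile transcript table and adult gene table hold TPM. The deposited juvenile gene table had been expected in TPM but holds a score, exp(log2(TPM + 1)) - 1, and was converted back. It holds 20368 genes that reach 3 TPM in at least 1 mouse. Summing transcripts by gene gave the converted value to 0.2 TPM throughout for 20288 genes, and to 0.02 TPM for the members. TPM gives no counts, so read depth is unknown.

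Ages were compared with limma 3.58.1 (R 4.3.3) on log2(TPM + 1), with a prior variance following the mean, all 28 mice in 1 model and Benjamini-Hochberg adjustment over all genes. Transcript usage was tested in genes averaging 3 TPM or more in each period, over the transcripts that reached 1 TPM where there were at least 2. The methods were tested on simulated data. Replicates are separate mice; pairs of the same age correlated at 0.947 to 0.984 and none was identical. Alternatives covered the pseudocount, the expression filter, 2 scalings, the prior, the source table, the ages in the fit, the mouse sets, a replicate block and each mouse left out.

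All 9 members are named, with the Mus81 partners, the 2 largest called rises and falls of each other list, and the 2 genes nearest to each member. Recql5, Exo1 and marker genes were named after their values were seen. The members and lists were chosen with earlier results of these data known. Listed symbols Spo16, Rnf212b, Hop2 and Spata22 were not analysed here under those names, and 1 further list and 1 pair ratio are not reported here. Python 3.11.15 with numpy 2.4.6, pandas 2.3.3 and matplotlib 3.10.9 was used for all else.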

Additional observations from a re-analysis of the deposited data

Results flagged for a closer look

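Hfm1 at 16 dpp had 1 mouse far from the others: mouse 1 measured 60.07 TPM and the next 42.41 TPM, a gap of 0.727 of the range, against a critical value of 0.71 for 5 samples. Chance gives about 1 such case in 20 groups, and 54 groups of 4 or 5 samples were tested. The same mouse had the highest Cntd1 (122.46 TPM), Mlh3 (21.14 TPM) and Ccnb1ip1 (24.50 TPM) of its age, and the highest pachytene marker sum, 1560 TPM against 816 to 1205 TPM in the other mice. Whether these move together for a common reason was not tested.

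The later-numbered mice and mice 1 to 3 differed at 18 dpp more than at 10 to 16 dpp for 2 of 9 members, beside 27.2% of all genes. This test was run after the values had been seen. The difference of differences was 0.47 for Tex11 (adjusted p = 0.00224, limma) and -0.50 for Mus81 (adjusted p = 0.0440, limma), on the log2 scale. The sets hold 3 and 2 mice at each of these ages.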

How the results depend on the processing

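The results were recomputed under up to 14 other settings and without each of the 28 mice in turn. Of 1465 recomputed fold changes of members, 1380 kept direction and side of the threshold, 42 lost and 42 gained a call, and 1 reversed. The counts of members called kept within 1.5 times of those reported except at the later steps. Between 16 and 18 dpp, where 3 were called, the count was 6 with median-of-ratios factors and from 3 to 6 without 1 mouse (6 without mouse 1 of 16 dpp, 5 without mouse 1 of 18 dpp). In the later-numbered mice alone, a setting added after seeing the data, none were called at that step (count of 0 by limma). With 2 mice at an age, fewer calls can be made. The changes there were 0.82 for Cntd1, 0.62 for Msh4 and 0.48 for Hfm1, against 0.76, 0.32 and 0.29 in the main fit. That of Mlh3 was smaller, at 0.47 against 0.59. The share of all genes called in this set is not given here. At the step from 14 to 16 dpp 2 were called in this set. Of the rises reported for that step, only that of Mlh3 was among them (0.47, adjusted p = 0.0485, limma). Those of Msh4 (0.49, adjusted p = 0.0675), Hfm1 (0.02, adjusted p = 0.936) and Cntd1 (0.78, adjusted p = 0.0717) were not called. The other call was a fall, that of Tex11, which had no reported call at that step. The Tex11 change from 16 to 18 dpp was 0.038 in this set, opposite in direction to that reported. Tex11 was already lower at 16 dpp in these mice, at 54.75 and 64.08 TPM against 74.67 and 78.1 TPM at 14 dpp. The cause was not tested.

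Mouse numbers were shared between ages. Of 57 same-numbered pairs 3 had deviations correlated above 0.1 (median 0.0147), beside 15 of 268 differently numbered pairs (median 0.000588). The numbers were therefore not used to pair mice in the main fit, and whether they stand for shared handling was not tested. With the replicate block the counts were 4 (12 against 10 dpp), 4 (16 against 14 dpp), 3 (18 against 16 dpp), 8 (18 against 8 dpp) and 7 (18 against 12 dpp), and no reported call of a member changed.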
